A study of Mus musculus with 4 samples.

Results

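The mitochondrial ribosomal proteins were taken as the genes whose mouse symbol is Mrpl or Mrps, a number and at most 1 letter, and 76 of the 18193 genes with a probe set of 1 gene symbol met this rule. A probe set is the group of short array probes that reads 1 transcript region, and where a gene had several, the one with the highest mean log2 signal was used. The 2 cell lines, 8534 and 8542, came from primary mammary tumors of female MMTV-tTA/TOP-ICN1 mice of strain FVB/N;B6. In these mice the MMTV promoter drives the tetracycline transactivator (tTA), which in turn drives human ICN1, the constitutively active intracellular form of NOTCH1, from a tet-responsive promoter. All 4 samples therefore carried both transgenes. Each line was left untreated, with ICN1 on, or received 2 µg/ml doxycycline for 24 hours, which switches ICN1 off, and total RNA was hybridized to 1 Affymetrix array per line and condition. The replicate was the cell line (n = 2 lines), and the values were log2 signals computed by the authors with MAS5, which scales every array to a common trimmed mean. Signals are given below in those units, on the linear scale.

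Mitochondrial ribosomes translate the few messenger RNAs of the mitochondrial genome, which encode core subunits of the respiratory chain and ATP synthase. Their RNAs are made in the mitochondrion, whereas all of their proteins are encoded in the nucleus, translated in the cytosol and imported. Part of these proteins have bacterial homologs and the others are found in mitochondria alone, and MYC is among the factors known to drive mitochondrial biogenesis. Doxycycline itself belongs to the tetracyclines, which block translation by bacterial and mitochondrial ribosomes. Every treated array carried both the drug and the loss of ICN1, and no array held doxycycline without the transgene, so that these cannot be told apart.

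The switch was visible in both lines. Hey1, a direct NOTCH target, went from 1138 to 96.4 units in 8534 and from 762 to 101 in 8542 (limma adjusted p = 0.000283), and Myc went from 289 to 137 and from 369 to 134 units (adjusted p = 0.00465). Dtx1 was also called lower (adjusted p = 0.00143). Hes1, another known NOTCH target, went from 391 to 224 and from 396 to 300 units and was not called (adjusted p = 0.0579). The cells were epithelial by their markers: the summed signal of 7 epithelial genes lay between 16200 and 20450 units on the untreated arrays and between 16420 and 23400 on the treated ones, with Krt8 and Krt18 called higher and Krt19 called lower. The lines differed in Krt14, a basal keratin, at 1379 and 869 units in 8534 against 15.9 and 10.0 in 8542. The leukocyte gene Ptprc stayed between 6.08 and 7.20 units. Over the 4 arrays, summed leukocyte markers lay between 52.2 and 78.8 units, adipocyte markers between 19.2 and 29.4 and endothelial markers between 106 and 246, with Tek of the last called lower. Summed fibroblast markers were 481 and 127 units untreated and 700 and 119 treated in 8534 and 8542, with none of 4 called. The part of these markers in the results was not tested. In bulk RNA, fewer cells of a type and less RNA per cell cannot be told apart.

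As a group, the mitochondrial ribosomal protein mRNAs were slightly lower with doxycycline. The median change over the 76 genes was -0.24 on the log2 scale, or 1.18-fold lower, with medians of -0.21 in 8534 and -0.25 in 8542, where the median over all 15070 genes tested was 0.02. The mean of both lines was below 0 for 65 members, and 54 members (71.1%) were lower in both lines, 5 were higher in both and 17 moved in opposite directions. Over all genes tested, 33.3% were lower in both lines, and among the 7299 genes within the members' range of mean signal the share was 38%. In 33 of the 76 members both treated arrays lay below both untreated arrays, a pattern seen in 23.1% of all genes tested. In 3 members (Mrpl1, Mrpl22 and Mrps31) both treated arrays lay above both untreated arrays. The share of all genes with this upward pattern was not computed.

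The changes of single members were small. By limma with the line as a block, 5 of 76 members (6.58%) were called lower at an adjusted p under 0.05, and 6.95% of all genes tested were called lower, so that the share of members called was close to this background. It was below the 10.1% called lower among the genes in the members' range of signal, a difference that was not tested. None was called higher, where 4.76% of all genes tested and 7.18% of those in the members' range of signal were. Of the 23 members with an unadjusted p under 0.05 all were lower. The share of all genes tested that reached this unadjusted threshold was not computed, so that this count has no background beside it. The methods counted genes that changed more than 2-fold in each line, and no member did so in either direction, although 4.18% of all genes tested passed it downward and 2.33% upward. The standard deviation of the mean change was 0.23 across the members and 0.75 across all genes tested, or 0.67 across the genes in the members' range of signal. All 76 members passed the filter on low signal.

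**Figure D1:**
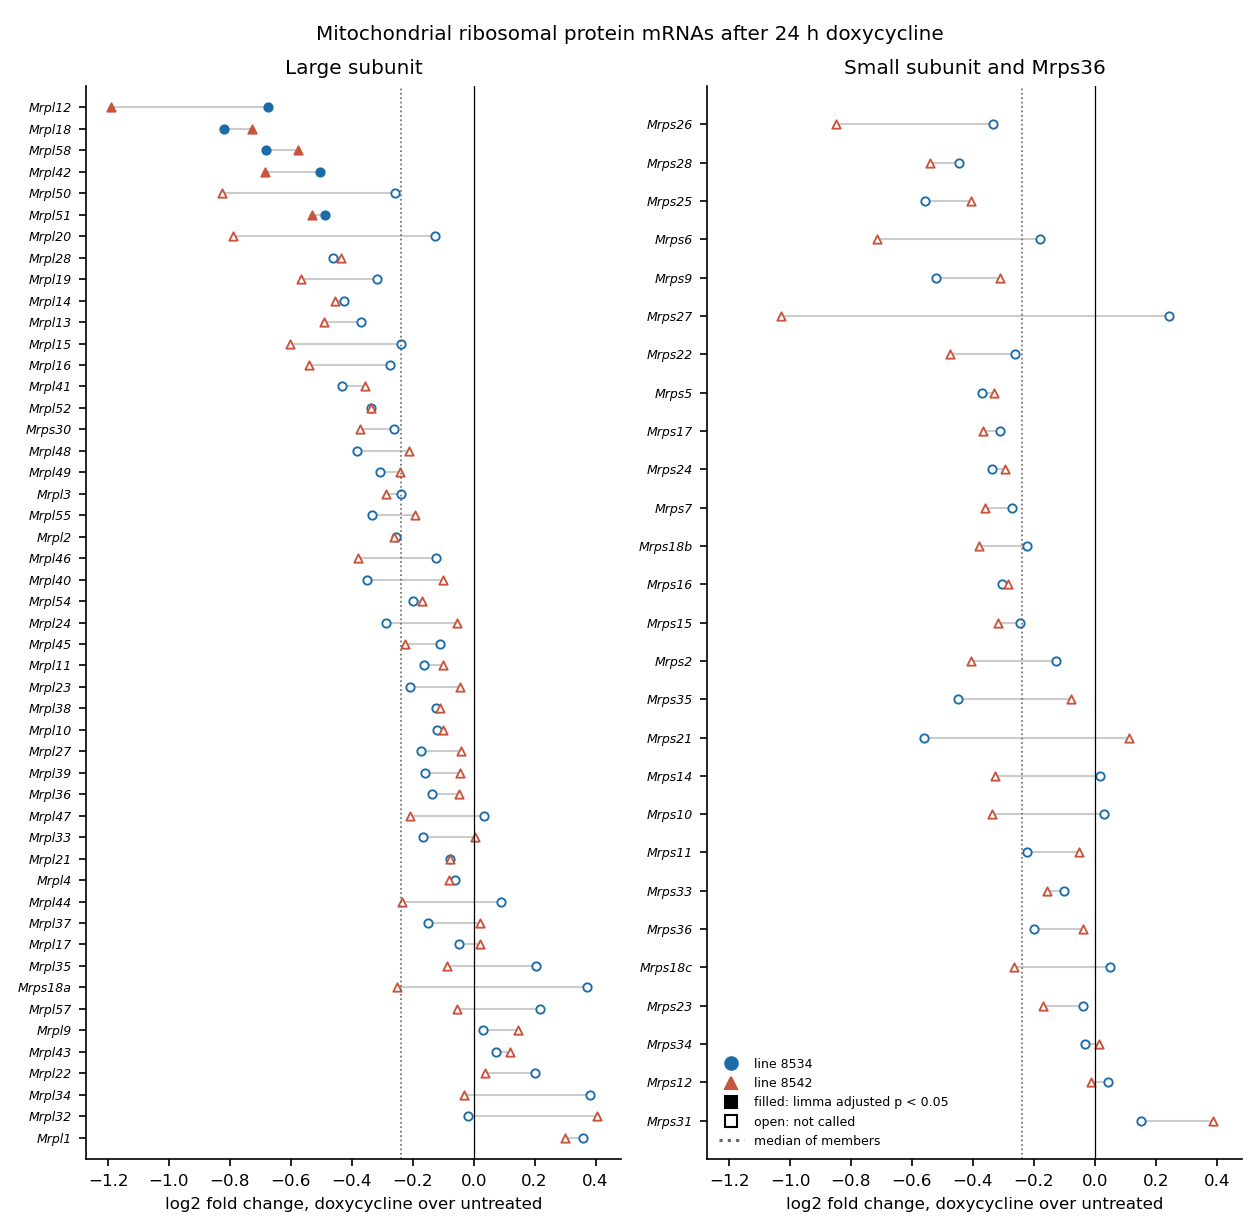
Log2 fold change with doxycycline of each of the 76 genes in line 8534 (circles) and line 8542 (triangles), ordered by the mean within the large subunit (left) and within the small subunit with Mrps36 (right). Filled symbols mark the 5 members called lower, and the dotted line is the median of -0.24. Most pairs of symbols lie left of 0, and Mrps27, Mrps21 and Mrps18a have their symbols on opposite sides.

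**Figure D2:**
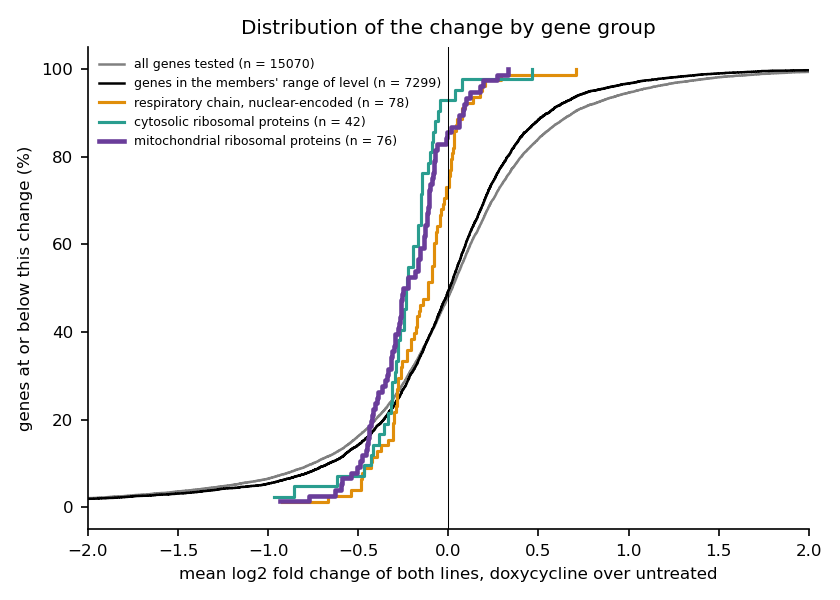
Cumulative share of genes (%) against the mean log2 fold change of both lines, for 76 mitochondrial ribosomal proteins, 42 cytosolic ribosomal proteins, 78 nuclear-encoded respiratory chain genes, the 7299 genes in the members' range of signal and all 15070 genes tested. The curve of the members is steep and crosses 50% at -0.24, where both broad curves cross it near 0.

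All 5 called members belong to the large subunit, which joins amino acids into the chain. They were 10.2% of its genes, where 10.1% of all genes in the members' range of signal were called lower. Mrpl12, the homolog of the bacterial stalk protein L12, which contacts translation factors, had the lowest mean change of all members. Its signal was 454 units untreated and 284 treated in 8534, and 719 untreated and 315 treated in 8542. Both treated arrays were well below both untreated arrays, and the untreated arrays differed more between the lines than the treated ones. The fall was 1.60-fold in 8534 and 2.28-fold in 8542, with a mean log2 change of -0.93 ± 0.37 (SD, n = 2 lines) and a limma adjusted p of 0.0135.

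Mrpl18, whose bacterial homolog L18 binds 5S rRNA, was at 679 and 384 units in 8534 and at 431 and 261 in 8542, untreated and treated. The groups did not overlap, with the treated array of 8534 still below the untreated array of 8542. The mean change was -0.77 ± 0.07 (adjusted p = 0.0122). Mrpl58, the peptidyl-tRNA hydrolase also known as ICT1 that releases chains from stalled ribosomes, was at 612 and 382 units in 8534 and at 1201 and 805 in 8542. Here the groups overlapped, since the whole of line 8542 lay above line 8534, while the fall within each line was alike, at 1.60-fold and 1.49-fold (mean -0.63 ± 0.07, adjusted p = 0.0195).

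Mrpl42 and Mrpl51 are proteins of the large subunit with no bacterial homolog. Mrpl42 went from 536 to 378 units in 8534 and from 613 to 382 in 8542, a mean change of -0.59 ± 0.13 (adjusted p = 0.0337). Mrpl51 went from 1064 to 759 and from 1176 to 815 units, a mean change of -0.51 ± 0.03 (adjusted p = 0.0350). In both genes the lines were close to each other in either condition, and the groups were separate. These calls rest on 1 residual degree of freedom: without the intensity trend in the moderation, or without the block for line, none of the 5 was called. These settings called few or no probe sets of any gene. Without the trend 0 were called lower and 0 higher, and without the block 83 were called lower and 9 higher. Mrpl42 and Mrpl51 also lost the call when probe sets of low signal were kept (adjusted p = 0.0527 and 0.0603).

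**Figure D3:**
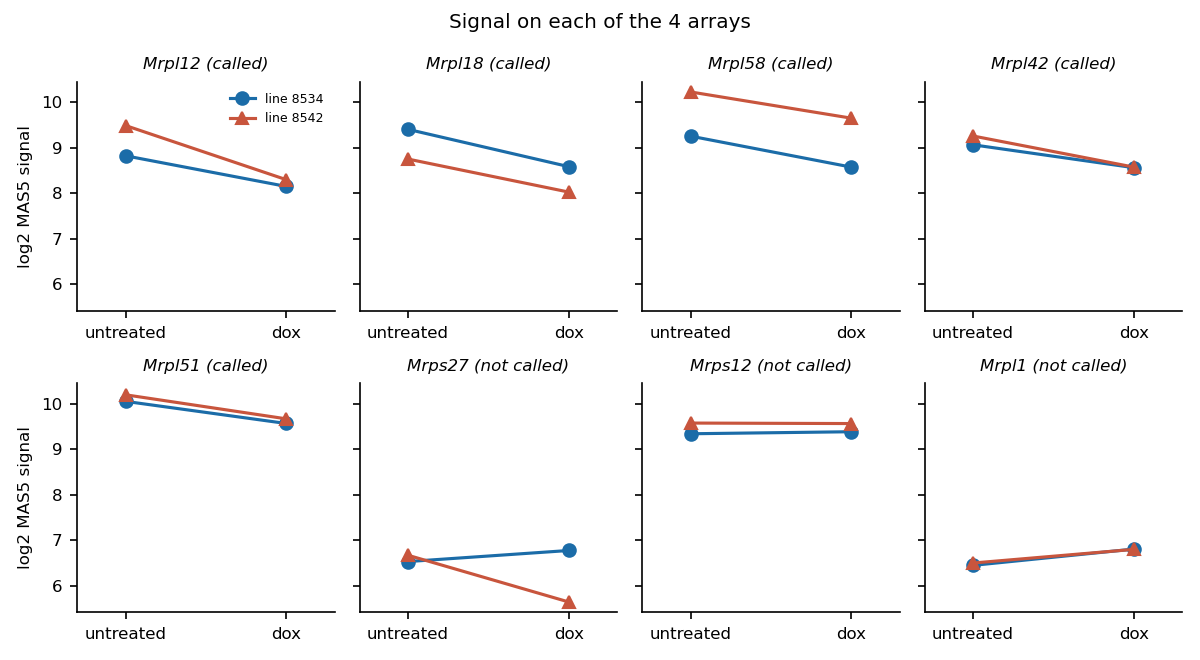
Log2 MAS5 signal on each of the 4 arrays for the 5 called members and for Mrps27, Mrps12 and Mrpl1, with a line joining the untreated and treated (dox) array of each cell line. The called members slope down in both lines, Mrpl58 with a wide gap between the lines, whereas Mrps27 slopes down in 8542 alone, Mrps12 is flat and Mrpl1 slopes up.

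The promoter sequences of 3 called members are given to show what lies upstream of genes that passed the test. They are the 250 bases before the gene start from RefSeq (GRCm38.p6), for the called genes whose window lies fully outside the gene's own RefSeq span, and capitals mark a match to a motif searched (ETS, CCGGAAG, or CSL, TGGGAA). Mrpl12 lies downstream of chr11:120484387-120484636 on the plus strand, Mrpl42 of chr10:95501950-95502199 on the minus strand and Mrpl51 of chr6:125191950-125192199 on the plus strand. The window of Mrpl12 held no match, that of Mrpl42 a CSL match at -142 and that of Mrpl51 an ETS match at -90 from the start.
Mrpl12: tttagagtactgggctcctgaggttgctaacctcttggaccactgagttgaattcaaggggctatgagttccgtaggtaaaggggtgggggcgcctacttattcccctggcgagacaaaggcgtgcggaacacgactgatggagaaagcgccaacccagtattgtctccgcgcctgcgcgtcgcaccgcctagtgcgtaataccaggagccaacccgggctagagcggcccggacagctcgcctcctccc
Mrpl42: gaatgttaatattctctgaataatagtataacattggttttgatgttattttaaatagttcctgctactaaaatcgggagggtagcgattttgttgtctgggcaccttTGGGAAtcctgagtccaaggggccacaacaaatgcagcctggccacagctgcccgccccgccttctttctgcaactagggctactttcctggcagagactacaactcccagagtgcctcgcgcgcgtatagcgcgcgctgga
Mrpl51: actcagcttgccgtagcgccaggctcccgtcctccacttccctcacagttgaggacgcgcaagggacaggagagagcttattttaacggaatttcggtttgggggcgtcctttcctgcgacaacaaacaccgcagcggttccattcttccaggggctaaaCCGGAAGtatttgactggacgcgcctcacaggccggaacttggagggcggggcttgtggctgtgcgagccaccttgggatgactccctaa

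RefSeq promoter windows (250 bases before to 50 after the start) were found for 67 of the 76 members, 73 windows in all. The motif of ETS factors such as GABPA, CCGGAAG on either strand, was in 34.2% of the members' windows, in 14.6% of those of all genes tested and in 8.86% of all windows in the table. The YY1 motif AAGATGGC was in 16.4%, 3.73% and 2.75%, and the NRF1 motif GCGCATGC, whose matches on opposite strands overlap in a full palindrome, in 11%, 4.42% and 2.71%. Shares of the MYC E-box CACGTG (9.59%, 9.02% and 7.15%) and of the CSL motif TGGGAA of the DNA partner of NOTCH (27.4%, 24.0% and 25.6%) lay closer together. All these shares count windows rather than genes, and overlapping windows of Mrpl2 each counted the same E-box. Among the 5 called members 3 windows held the ETS motif, 2 the CSL motif, 1 the YY1 motif and 0 the other motifs. These are letter matches in one window and were not tested. Mean GC content was 59.0% in the members' windows and 59.5% in those of all genes tested. Mrpl46 of the large and Mrps11 of the small subunit start from opposite strands of chromosome 7, with upstream windows that overlap by 41 bases, and their mean changes were -0.25 (adjusted p = 0.378) and -0.14 (adjusted p = 0.683).

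By subunit, 35 of 49 large-subunit genes and 18 of 26 small-subunit genes were lower in both lines, with median changes of -0.17 and -0.29. The large subunit held all 5 calls, or 10.2% of its genes. Called lower were 6.95% of all genes tested and 10.1% of those in the members' range of signal. The large subunit also held 4 of the 5 members that were higher in both lines. Its changes were more spread, with an SD of 0.26 against 0.18 in the small subunit. By the standard nomenclature, 45 members have a bacterial counterpart (median -0.22, 2 called, or 4.44%). Another 30 are counted as specific to mitochondria (median -0.26, 3 called, or 10%). Differences by subunit and by origin were not tested. Mrps30 and Mrps18a, named for the small subunit, are counted here with the large subunit in which the proteins sit.

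In the small subunit, which reads the messenger RNA, no member was called. The lowest was Mrps26, at 311 and 247 units in 8534 and 431 and 239 in 8542 (mean -0.59 ± 0.36, adjusted p = 0.0795), followed by Mrps28 (mean -0.49 ± 0.07, adjusted p = 0.0710) and Mrps25 (mean -0.48 ± 0.11, adjusted p = 0.112). All 3 were lower in both lines with groups that did not overlap. Mrps12, the homolog of the bacterial decoding-center protein S12, read 649 and 670 units in 8534 and 764 and 759 in 8542, a mean change of 0.02 ± 0.04. The largest gap between the lines was in Mrps27, a pentatricopeptide repeat protein, with 92.5 and 109 units in 8534 but 102 and 49.9 in 8542, a change of 0.24 in one line and -1.03 in the other (adjusted p = 0.527).

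The members hold 3 genes named after bacterial S18, of which the nomenclature of the mitochondrial ribosome counts Mrps18c as the counterpart of S18 and the other two as mitochondrial proteins, and they did not all move one way. Mrps18b was lower in both lines (mean -0.30 ± 0.11, adjusted p = 0.255), Mrps18c changed by 0.05 and -0.26 in 8534 and 8542, and Mrps18a by 0.37 and -0.25. Mrps36, which carries the family name but is known as a subunit of the 2-oxoglutarate dehydrogenase complex, changed by -0.12 ± 0.11. None of these 4 genes was called. In the large subunit, Mrpl11, which forms the base of the stalk that carries Mrpl12, changed by -0.13 ± 0.04 (adjusted p = 0.611). Mrpl41, also described as a pro-apoptotic partner of BCL2, went from 616 to 456 and from 710 to 555 units (mean -0.39 ± 0.05, adjusted p = 0.103). Mrpl44, which has a ribonuclease III-like fold, changed by -0.07 ± 0.23 on the probe set used. The other probe sets of Mrpl44 were lower in both lines, with means of -0.35, -0.53 and -0.19, and none was called.

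Next to the called genes in the large subunit, Mrpl50 went from 205 to 172 and from 203 to 115 units (mean -0.54 ± 0.40, adjusted p = 0.145), and Mrpl20, whose bacterial homolog acts early in ribosome assembly, from 864 to 791 and from 913 to 529 units (mean -0.46 ± 0.47, adjusted p = 0.162). In both, the fall in 8542 was larger than in 8534. On the probe sets used, Mrpl28, Mrpl14 and Mrpl52 gave nearly the same change in each line without passing the test. Mrpl28 went from 906 to 658 units in 8534 and from 511 to 379 in 8542 (mean -0.45 ± 0.02, adjusted p = 0.0673), and Mrpl14, a homolog of bacterial L14, from 981 to 731 and from 670 to 489 (mean -0.44 ± 0.02, adjusted p = 0.0656). In both the groups overlapped, since line 8534 was the higher one throughout. Mrpl52, at 607 and 480 and then 681 and 539 units, had a mean of -0.34 (adjusted p = 0.152) and no overlap. A nearly as bright probe set of Mrpl28 changed by 0.11 in 8534 and by -0.37 in 8542 (limma adjusted p = 0.69). A further one of Mrpl28 was lower in both lines (mean -0.38, limma adjusted p = 0.129). At the upper end stood Mrpl1, the homolog of the bacterial L1 stalk protein, at 87.2 and 112 units in 8534 and 90.4 and 111 in 8542 (mean 0.33 ± 0.04, adjusted p = 0.365). The treated arrays were above the untreated ones in both lines, but the gene did not pass the test. Another, somewhat dimmer probe set of Mrpl1 was slightly lower in both lines (mean -0.09, limma adjusted p = 0.867). It read 83.8 and 79.8 units in 8534 and 61.9 and 57.7 in 8542. The dimmest probe set of Mrpl1 changed by 0.71 in 8534 and by -0.59 in 8542. The other members of the upper 10 were Mrps31 at 0.27, Mrpl32, a protein matured by the m-AAA protease, at 0.19, Mrpl34 at 0.18, Mrpl22, which lines the exit tunnel, at 0.12, Mrpl43 at 0.10, Mrpl9 at 0.09, Mrpl57 at 0.08, Mrps18a at 0.06 and Mrpl35 at 0.06. Of these, Mrps31, Mrpl22, Mrpl43 and Mrpl9 were higher in both lines on the probe set used, and the lowest adjusted p among the 10 genes was that of Mrpl1. The other probe sets of Mrpl9 were lower in both lines, with means of -0.21 and -0.18, and none was called.

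The lines differed in their untreated level of these genes and in the size of the change. Untreated, 48 members were higher in 8542 and 28 lower, with differences from -0.92 (Mrps36) to 0.97 (Mrpl58) on the log2 scale, a median of 0.11 and 15 members over 0.5. With doxycycline, 40 of 76 members fell further, or rose less, in 8542 than in 8534. The change differed by over 0.5 between the lines in 8 members, namely Mrpl12, Mrps26, Mrpl50, Mrpl20, Mrps6 and Mrps27, which were lower in 8542, and Mrps21 and Mrps18a. Of these, Mrps18a was also lower in 8542, and only Mrps21 had the lower value in 8534. In 8542 alone 2 members, Mrpl12 and Mrps27, passed 2-fold. Across the 76 members the changes in 8534 and 8542 were correlated with r = 0.47 (Pearson) and rho = 0.52 (Spearman), a description over genes of the same 4 arrays, beside 0.52 and 0.46 over all genes tested and 0.82 and 0.71 over the genes in the members' range of signal. A difference between the lines in response could not be tested, since 1 array per line and condition leaves no residual degrees of freedom for it.

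**Figure D4:**
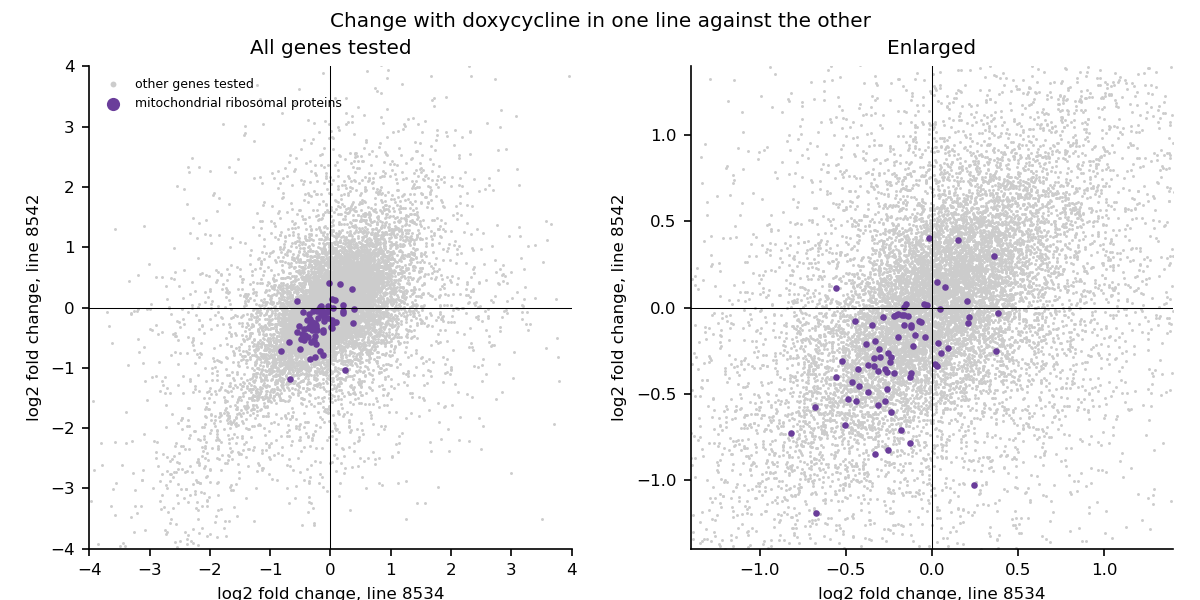
Log2 fold change with doxycycline in line 8542 against line 8534 for all genes tested (gray) and for the 76 mitochondrial ribosomal proteins (purple), over a wide range (left) and enlarged (right). The members gather below and left of 0, inside the cloud of all genes, with Mrps27 at the lower right of it.

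Other probe sets of the same genes gave a second reading. There were 80 more probe sets of a single symbol in 42 of the genes, of which 73 in 40 genes were tested. Of these 57 were lower in the mean, 44 were lower in both lines and 54 had the same sign as the probe set used, with a median of -0.18. The 5 called lower read Mrpl13 (2 probe sets), Mrpl19, Mrpl50 and Mrpl52, and 0 were called higher. Over all 33778 probe sets tested, 1872 were called lower and 1245 higher. Among all genes tested, with 1 probe set each, 33.3% were lower in both lines. Of the 5 called members, Mrpl12 and Mrpl18 had no second probe set. The 4 further probe sets of Mrpl42, Mrpl51 and Mrpl58 were not called, and 2 of them were lower in both lines. For Mrpl42 the second probe set read 14.5 and 15.0 units in 8534 and 4.13 and 8.62 in 8542, and for Mrpl58 it read 23.4 and 31.5 and then 42.7 and 28.5 units, all far below the probe sets used above. With the mean over all probe sets of a gene, Mrpl12 and Mrpl18 stayed called and Mrpl42, Mrpl51 and Mrpl58 did not. Averaging could not alter the values of Mrpl12 and Mrpl18, so that this is no comparison of the genes. For Mrpl13, a homolog of bacterial L13, the probe set used read 1151 and 890 units in 8534 and 1063 and 757 in 8542 (mean -0.43 ± 0.08, adjusted p = 0.0640). Its next brightest probe set, called lower, read 486 and 323 and then 416 and 240 units (mean -0.69, adjusted p = 0.0237), so that all these readings of Mrpl13 were lower in both lines. Mrpl50 was lower on its second probe set too, from 104 to 55.3 and from 99.3 to 44.7 units (mean -1.03, adjusted p = 0.0283).

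Cytosolic ribosomal proteins, which build the ribosomes that translate nuclear messages, showed a shift of like size. Of 42 genes tested, 38 (90.5%) were lower in both lines and 4 (9.52%) were called lower, with a median of -0.23. Of 78 nuclear-encoded respiratory chain genes tested, 49 (62.8%) were lower in both lines and 5 (6.41%) were called lower, with a median of -0.11. Over all genes tested 33.3% were lower in both lines and 6.95% were called lower. Among those in the members' range of signal the shares were 38% and 10.1%. None of the cytosolic or respiratory genes was called higher, where 4.76% of all genes tested were. The lists were not tested against each other. The shift was thus not shown to be particular to the mitochondrial ribosome.

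The other genes that make or serve the mitochondrial ribosome were taken from lists chosen by function. Of 4 ribosomal proteins with other symbols none was called: Gadd45gip1 changed by -0.69, Ptcd3 by -0.36, Chchd1 by -0.28 and Dap3 by 0.40. None of 23 assembly factors was called (median -0.11, 10 lower in both lines), nor any of 14 translation factors (median -0.19, 9 lower in both lines). Among the latter, Oxa1l, which inserts new chains into the inner membrane, was at 154 and 102 units in 8534 and 192 and 127 in 8542 (mean -0.59, adjusted p = 0.0781), and the elongation factor Tufm had a mean of -0.49 (adjusted p = 0.0917).

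Of 16 mitochondrial tRNA synthetases 1 was called lower, Sars2, from 162 to 90.8 and from 204 to 91.2 units (mean -1.0, adjusted p = 0.0168). Aars2 had the largest mean change of this list, from 42.7 to 10.9 and from 25.2 to 11.8 units. It was 3.92-fold lower in 8534 and 2.13-fold lower in 8542, past 2-fold in both lines, but was not called (mean -1.53 ± 0.62, adjusted p = 0.0894). Of 14 genes of mitochondrial DNA, transcription and messenger RNA 1 was called lower, Tfam, the factor that packages mitochondrial DNA and starts its transcription. It went from 394 to 231 units in 8534 and from 341 to 201 in 8542 (mean -0.77, adjusted p = 0.0169), and with the mean of all its probe sets it was no longer called. Of 11 chaperones and proteases, 10 were lower in the mean and 2 (18.2%, beside 6.95% of all genes tested) were called lower. These were the partner chaperonins Hspd1 (-0.53, adjusted p = 0.0197) and Hspe1 (-0.42, adjusted p = 0.0479). Neither call held with probe sets of low signal kept. The 1 gene of the mitochondrial genome with a usable symbol, ND5, read 4416 and 4839 units in 8534 and 4644 and 4958 in 8542 (mean 0.11, adjusted p = 0.560).

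ATF4 and its targets, a program known to answer mitochondrial translation stress among other stresses, did not move in one direction. In this list 4 genes were lower in both lines, 4 were higher in both and 7 moved in opposite directions. The median change was 0.18 in 8534 and -0.25 in 8542. Of 15 genes tested 3 (20%, beside 6.95% of all genes tested) were called lower. They were Psat1 of serine synthesis (mean -1.90, adjusted p = 0.0129), Shmt2 of mitochondrial folate metabolism (-0.72, adjusted p = 0.0287) and Ddit4, an inhibitor of mTORC1 (-0.65, adjusted p = 0.0120). None was called higher. Ddit3 (0.73), Sesn2 (0.68) and Atf5 (0.65) were higher in both lines with adjusted p of 0.0532, 0.0531 and 0.0541, and the count called higher was 3 with the filter at the 50th percentile of signal and 1 with quantile normalization. Atf4 itself changed by 0.03 in 8534 and by -0.25 in 8542.

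**Figure D5:**
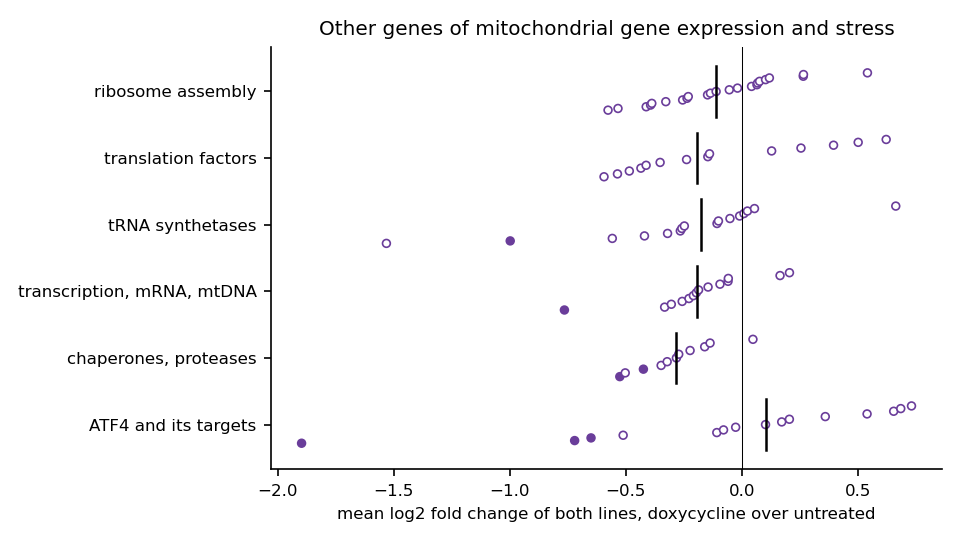
Mean log2 fold change of both lines for single genes (circles) of 6 lists of mitochondrial gene expression and stress, with the median of each list as a vertical bar and filled circles for genes called by limma. The medians of the first 5 lists lie between -0.28 and -0.11, that of ATF4 and its targets at 0.10, and all 7 filled circles lie below 0.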

How the data were processed

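The 4 Affymetrix arrays held 1 untreated and 1 treated sample (2 µg/ml doxycycline, 24 hours) of each line. The deposited values are log2 signals from MAS5, run by the authors. Their log base was taken from the values, since base 2 gives 2% trimmed means of 97.3 to 101 units on the arrays. The paper's methods list the array's A version, but the values cover 45101 probe sets. The sources used here give neither the MAS5 version nor its target signal, detection calls were not used, and the number of arrays limits the precision. From the values, 64 control probe sets were left out, and of the other 45037 the annotation gives 1 symbol for 34945, several for 932 and none for 9160. Mrpl30 and Mrpl53 had only probe sets of several symbols and were not counted.

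Changes were treated minus untreated log2 values within a line. A model with line and treatment was fitted in limma 3.58.1 under R 4.3.3. It covered 33778 probe sets, those whose mean log2 signal reached the 25th percentile (2.94), with an intensity trend and Benjamini-Hochberg adjustment over all of them, and genes were called at an adjusted p under 0.05. The residual degree of freedom was 1, with 6.18 prior degrees of freedom. Pairing by line comes from the shared cell line, and arrays of a line deviated together (r = 0.36). Separate cultures are not described beyond the lines. The limma p-values thus rest on how far the change differed between these 2 lines, moderated by the spread of other probe sets of like signal. With more prior than residual degrees of freedom, the spread of other probe sets weighs most. The smallest p of an exact test on 2 lines is 0.5. The model was tested on simulated data, where false calls exceeded the nominal share. The simulation raised a small set of probe sets and lowered none, unlike these data, so that the size of this excess need not carry over. The rule of the methods (2-fold in both lines) was applied without a test. The members and lists were chosen with earlier results of these data known. Named were the 10 members lowest and the 10 highest in mean change, members called or past the rule, members with opposite changes over 0.5 in each line, 9 members by role, and up to 3 called genes of each other list with the largest change. Genes named beyond these were chosen after their values were seen.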

Additional observations from a re-analysis of the deposited data

How the results depend on the processing

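The 5 members called lower became 3 with no filter on level, 2 with the mean over all probe sets of a gene, 0 with limma without the trend and 0 with no replicate block (no term for line). In the last 2 settings 3 and 7 members had an unadjusted p under 0.05, all lower, without a share over all genes beside them. The lowest adjusted p among the members was 0.275 and 0.255, and over all probe sets tested it was 0.223 and 0.0264. Without the trend 0 probe sets of any gene were called, and with no replicate block 83 were called lower and 9 higher. The 3 and the 2 were among the original 5, while the 5 called after leaving out probe sets with the suffixes _x_, _s_ or _a_ shared 3 with them, since Mrpl58 (-0.07) and Mrpl51 (-0.33) were then read by dimmer probe sets. With the filter at the 50th percentile, quantile normalization, median centring, a floor or a pseudocount at the 20th percentile (5.52 units), 4 to 6 were called. No member was called higher or was past 2-fold higher in both lines in any setting run. Leaving out 1 line, the number past 2-fold lower was 0 to 2 (2 without line 8534) and the median change -0.25 to -0.21. The median was -0.19 with quantile normalization. Settings that kept all 76 members had 63 to 65 with a mean below 0 and 51 to 55 lower in both lines. With the mean over all probe sets of a gene, 4 named members changed sign: Mrpl57 (-0.0166), Mrpl9 (-0.10), Mrpl34 (-0.0551) and Mrpl11 (0.0909), none of them called. The cause of these changes was not tested. Signals of dim second probe sets near the floor limit what they can show. This limit does not cover Mrpl9, whose other probe sets read 106 to 158 units.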

Other observations

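Probe sets that share their symbol with another gene were kept out of every count. For Mrpl30, listed together with the predicted gene Gm6238, the brighter probe set went from 807 to 604 units in 8534 and from 1252 to 996 in 8542 (mean log2 change -0.37, limma adjusted p = 0.0996), and the dimmer one from 166 to 73.9 and from 156 to 89.5 units (mean -0.98, adjusted p = 0.0212). The probe set of Mrpl53 and Ccdc142 changed by -0.03 (adjusted p = 0.918). A probe set shared by Nme3 and Mrps34 changed by 0.31 (adjusted p = 0.255).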
